A study of Mus musculus with 8 samples.

Results

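The complement and coagulation genes were a fixed list of 39 genes for plasma proteins of both cascades, and all 39 were present among the 22380 protein-coding genes of the GENCODE M1 annotation of mm9. CGs were taken from each gene record with 5 kb on each side. The methylation level of a CG was its methylated reads as a percentage of all its reads, on 1 strand, with at least 10 reads. Of the 176951 CGs with 10 reads in all 8 mice, 149 lay in these regions, and 26 of the 39 members had at least 1 of them.

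Complement is a set of plasma proteins that mark microbes for uptake and pierce their membranes. Recognition molecules bind a surface, proteases cut C3, and the terminal proteins assemble a pore. In coagulation a chain of proteases ends in thrombin, which turns fibrinogen into fibrin, while inhibitors and plasmin hold clots in check. Hepatocytes secrete most of these proteins, but C1q is made mainly by macrophages and complement factor D mainly by fat cells.

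The livers came from 8 mice, namely 1 female and 1 male of each of 2 inbred strains, B6 (C57BL/6J) and DBA (DBA/2J), and 1 female and 1 male of each reciprocal F1 hybrid, BXD with a B6 mother and DXB with a DBA mother. The mice were 16 weeks old and had been fasted for 16 h. In reduced representation bisulfite sequencing (RRBS), DNA is cut at CCGG by MspI, short fragments are kept, and bisulfite turns unmethylated cytosines into bases read as thymine. With 1 mouse for each strain and sex, the spread between the mice of a strain also holds any difference between the sexes. The tests over all mice take out a sex difference common to the groups, but not one that differs between them. Their p-values measure only the spread left among these mice. Whole liver mixes cell types, so a different mix of cells and a different level within a cell type cannot be told apart.

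The libraries held from 527351 (DBA male) to 1227747 (B6 female) CGs with at least 10 reads, with a mean of 51.6 to 96.3 reads at these. Counting error alone is therefore large at the minimum of 10 reads, where 1 read is worth 10 points. Of the cytosine calls on autosomal reads tagged by a SNP, 99.7% carried the B6 tag in the B6 female, 0.464% and 0.899% in the DBA female and male, and 52.3% to 53.4% in the F1 mice. The library labelled B6 male had 83.9%. Within 500 kb of the members, its B6 share was 0% at C8b (155 tagged cytosine calls), 0.595% at F12 (2688 calls) and 82.3% at C8a (874 calls), at least 93.9% at 28 members, and unknown at 8 members without tags. The calls over all mice and the comparison of liver-made members are therefore also given without this library, and the calls in males without C8a, C8b and F12. Of 10 hepatocyte markers, CGs near the start were read only for Apoh, at 1.74% in all mice, and Hpd, at 42.2% where covered, so that Alb, Ttr and the other defining markers gave no check of the tissue. Near the start of Emr1, which marks macrophages, the level was 84.9% where covered.

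Levels of the members spread over the whole scale. Of the 26 members, 7 had a mean level above 80% over all 8 mice, 16 lay between 20% and 80%, and 3 lay below 20%. The share between 20% and 80% was 61.5% of the members, beside 40.5% of the 14580 protein-coding genes with such CGs. The SD of a member's mean across the 8 mice was 3.63 points in the median, from 0.89 for C8b to 10.03 for Cfd. The highest means were those of C9 (98.04 ± 1.65%, 1 CG), C6 (94.4 ± 3.23%, 2 CGs) and C8b (94.1 ± 0.89%, 4 CGs; SD, n = 8 mice), all components of the terminal complex. The lowest were those of Cpb2 (3.45 ± 1.77%, 5 CGs), C8g (8.21 ± 2.47%, 8 CGs) and C2 (19.8 ± 0.946%, 26 CGs). All CGs behind the values of Cpb2 and C8g lay inside other genes, Zc3h13 for Cpb2 and Fbxw5 or Lcn12 for C8g, and 19 of the 26 CGs of C2 lay in Zbtb12. These low means depend on which CGs are read. With 5 reads required, Cpb2 had 32.3%, C8g 6.39% and C2 26.7%, and with 20 reads C8g had 3.24% and C2 1.52%. Other means moved by more than 1.5 times as well. Klkb1 had 44.5% at 5 reads in place of 28.2%. With 20 reads required, C1qa had 45.6%, C3 18.2%, F10 29.3%, Masp1 91.3% and Serpinf2 74.3%, since fewer of their CGs were left. Inside Cpb2 itself, 9 intron CGs read in 4 to 7 mice had 65.2% to 97.1%.

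**Figure D1:**
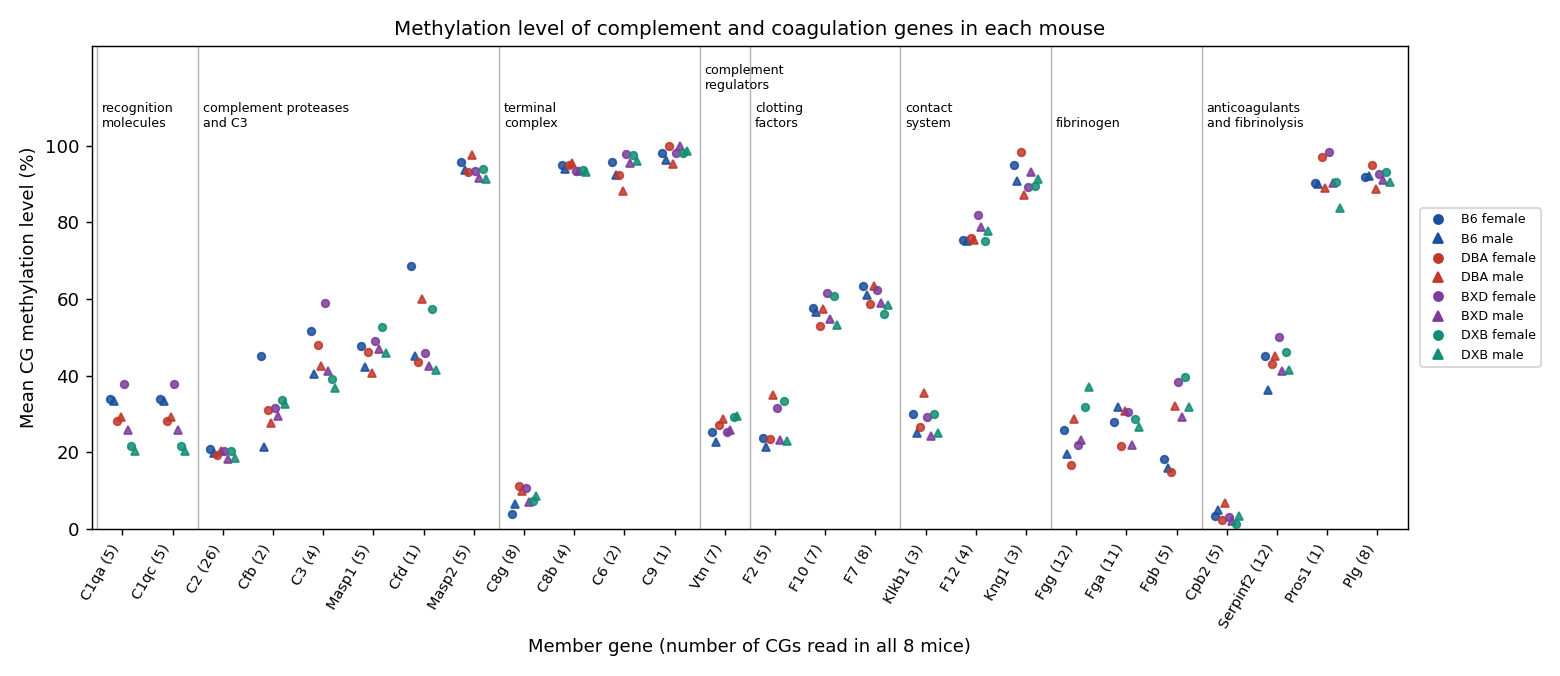
Mean CG methylation level (percent, vertical axis) of the 26 members with a CG read in all 8 mice, grouped by role, with the number of CGs in parentheses and 1 point for each mouse (circles females, triangles males). C6, C8b and C9 of the terminal complex sit at 88.2% or more in every mouse, and the 3 fibrinogen genes sit between 14.8% and 39.6%.

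Intermediate levels made up a larger share of the members' CGs than of all CGs near genes, except in introns. Counting a CG once for each gene it belongs to, 63 of 159 CGs (39.6%) had a mean level between 20% and 80%, and 15.3% of the 168331 such pairs of all protein-coding genes did. When only CGs outside the records of other genes were counted, the shares were 51 of 106 (48.1%) and 15.9%. Within 1 kb of the start, 11 of 24 CGs (45.8%) were intermediate, and 5.69% for all genes. All 11 belonged to F7, Fgb and F2, while the 12 start CGs of C2 and C8g were below 20%. In coding exons the shares were 59.5% and 17.8%. In introns they went the other way, with 13.04% of 46 CGs of the members and 26.4% for all genes. The intron CGs of C2, all inside Zbtb12, ran from 0% to 15.2% or from 92.6% to 99.1%, and none was intermediate. The lower intron share of the members therefore rests in part on CGs of Zbtb12, and the share without them was not counted. The members' starts were also poor in CG. The ratio of observed to expected CGs within 1 kb was 0.221 in the median, from 0.084 for C3 to 0.662 for C2, and 0.468 for all protein-coding genes. Only C2 exceeded 0.6, which 33.8% of all genes did, and the part of CG content in the levels was not tested.

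Recognition molecules were read mostly outside their own starts. C1qa, C1qb and C1qc encode the chains of C1q and lie side by side on chromosome 4. The 5 CGs read in all mice for C1qa were in its coding exons, at 28.8 ± 6.08%, and served C1qc as well, since they lie in its upstream flank. They ran from 7.16% at 2355 bases from the C1qa start to 52.6% at 2089 bases. Mean levels of C1qa were 34.0% and 33.4% in the B6 female and male, 28.3% and 29.2% in DBA, 37.8% and 26.0% in BXD, and 21.7% and 20.4% in DXB. For C1qb, 19 CGs reached 10 reads in at least 3 mice, all of them inside C1qc, with a median of 82.8%. Mbl1, a mannose-binding lectin, had 5 CGs between 8 and 225 bases after its start, at 18.4% to 33.2%, 2 CGs about 3.2 kb before it, at 94.0% and 97.6%, and 2 CGs beyond its end, at 59.3% and 27.3%. Mbl2, the other mannose-binding lectin, had no read in any mouse.

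Among the complement proteases and C3, Masp1 held both low and high CGs. It encodes a protease of the lectin pathway. Its 3 CGs at 2567 to 2584 bases after the start, in an intron, averaged 16.6 ± 6.53%, and its 2 CGs at 5248 and 5425 bases averaged 91.3 ± 2.85% (SD, n = 8 mice). The low group had 17.1% in the B6 female, 9.31% in the B6 male, 13.4% and 7.14% in the DBA female and male, 21.5% and 17.4% in BXD, and 27.1% and 19.7% in DXB. The levels of both groups did not overlap in any mouse. The stretches with these CGs are shown on the strand of the gene, with measured CGs in capitals.
Masp1, low CGs (chr16:23518067-23518134, minus strand, intron): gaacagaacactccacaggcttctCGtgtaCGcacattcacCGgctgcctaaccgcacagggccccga
Masp1, high CGs (chr16:23515226-23515453, minus strand, intron): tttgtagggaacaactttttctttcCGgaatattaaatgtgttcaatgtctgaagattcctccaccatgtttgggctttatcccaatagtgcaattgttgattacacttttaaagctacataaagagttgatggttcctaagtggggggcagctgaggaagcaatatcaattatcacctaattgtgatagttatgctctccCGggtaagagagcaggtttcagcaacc

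Masp2, the second protease of the lectin pathway, had 93.8 ± 2.05% over its 5 CGs read in all mice, in its upstream flank and an intron. At 19 further CGs of the flank, read in 3 to 6 mice, means ran from 49.2% to 100.0%. At 3 in the intron they ran from 55.2% to 95.04%. The lowest flank mean is that of the CG at -3623 bases, called between the strains below. It averages 96.0% and 97.5% in B6, 0% in both DBA mice and 52.3% in the BXD male. C3, the central protein that all pathways cut, had 4 CGs beyond its end, from 18.2% to 75.6%. Factor B (Cfb), a protease of the alternative pathway, had 2 CGs in coding exons, shared with the record Gm20547, at 33.7% and 29.5%, and the second of these lay between 10.2% (DBA male) and 52.3% (B6 female). The start of the C2 record lay 17 bases from the start of Ehmt2, and its 5 CGs there averaged 3.55 ± 1.78%. They cannot be told apart from CGs of Ehmt2. The start of C8g likewise lay 969 bases from that of Fbxw5, and its 7 CGs there averaged 3.24 ± 1.15%. C1ra, the C1r protease, overlaps its near copy C1rb, and its 8 CGs read in at least 3 mice ran from 6.08% to 97.0%. Factor D (Cfd), a protease of the alternative pathway, had a single CG in all mice, inside Elane, at 50.6 ± 10.03%.

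Levels in the terminal complex were high at C6, C8b and C9 and varied within C8a. C8g was low, but all its CGs read in all mice lay inside other genes. C6, C8b and C9 were read in introns or beyond the end, at 84.6% or more in every mouse and CG. C8a had 14 CGs in at least 3 mice, in introns or beyond its end, with a median of 92.1%. They ran from 35.3% to 98.97%, and 5 of them lay between 20% and 80%. C8b and C8a lie in the stretch where the B6 male library carried DBA tags. C8b had 94.8% in the B6 female and 93.9% in the B6 male. Of the complement regulators, vitronectin (Vtn) had 3 CGs beyond its end at 50.6 ± 4.98%, apart from 4 at 0.791% to 15.6% that lie in Sarm1. Serping1, the C1 inhibitor, had 9 CGs around its start in at least 3 mice, at 3.92% to 30.6%. For complement factor I (Cfi), 15 of 17 CGs read in at least 3 mice lay in Pla2g12a, and the other 2, before its own start, had 71.1% and 7.33%.

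Of the clotting factors, F7, the protease that starts clotting with tissue factor, held both low and high CGs. The 4 CGs between 19 bases before and 253 bases after its start averaged 27.5 ± 5.70%. The 4 CGs from 5578 to 8975 bases after it averaged 93.1 ± 1.33%. At the start, levels were 32.9% and 29.0% in the B6 female and male, 23.0% and 36.4% in DBA, 31.1% and 23.4% in BXD, and 19.9% and 24.5% in DXB. Further in, no mouse was below 90.4%, so the 2 groups of CGs stood apart in all 8 mice. A stretch holding 2 of the measured CG sites at the start and another holding the CG at 5578 bases are printed, with these CGs in capitals.
F7, coding exon and intron at the start (chr8:13026059-13026298, plus strand): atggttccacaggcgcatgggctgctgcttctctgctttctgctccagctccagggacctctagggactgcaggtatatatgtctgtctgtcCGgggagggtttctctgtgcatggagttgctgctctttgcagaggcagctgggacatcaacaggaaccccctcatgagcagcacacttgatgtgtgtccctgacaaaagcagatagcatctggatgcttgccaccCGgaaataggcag
F7, intron further in (chr8:13031592-13031672, plus strand): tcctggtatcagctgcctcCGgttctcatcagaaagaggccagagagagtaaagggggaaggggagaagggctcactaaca

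Prothrombin (F2) had 26.9 ± 5.46% over its 5 CGs read in all mice and 22.7 ± 4.95% at the 3 of these from 836 to 858 bases after the start. Further in it was higher, with 9 CGs of coding exons at 7918 to 8065 bases, read in 3 to 7 mice, at 59.8% to 100.0%. Its mean was 58.7% when 5 reads sufficed, which let such CGs in. F10, which forms thrombin, had 3 CGs beyond its end, outside other genes, at 27.1 ± 6.72%. F5, its cofactor, had 9 CGs in at least 3 mice, with 94.4% at a CG in a coding exon and 7.40% to 31.3% beyond its end. F13b, the carrier subunit of the enzyme that links fibrin, had 4 CGs at 80.1% to 98.1%. In the contact system, which starts clotting on surfaces, the kininogen gene Kng1 had 91.7 ± 3.56%, factor XII (F12) 76.9 ± 2.40% and plasma kallikrein (Klkb1) 28.2 ± 3.78%. The value of Kng1 rests on 3 CGs and was 71.4 ± 9.43% with 5 reads required. F11 had 6 CGs in at least 3 mice at 71.0% to 96.0%.

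**Figure D2:**
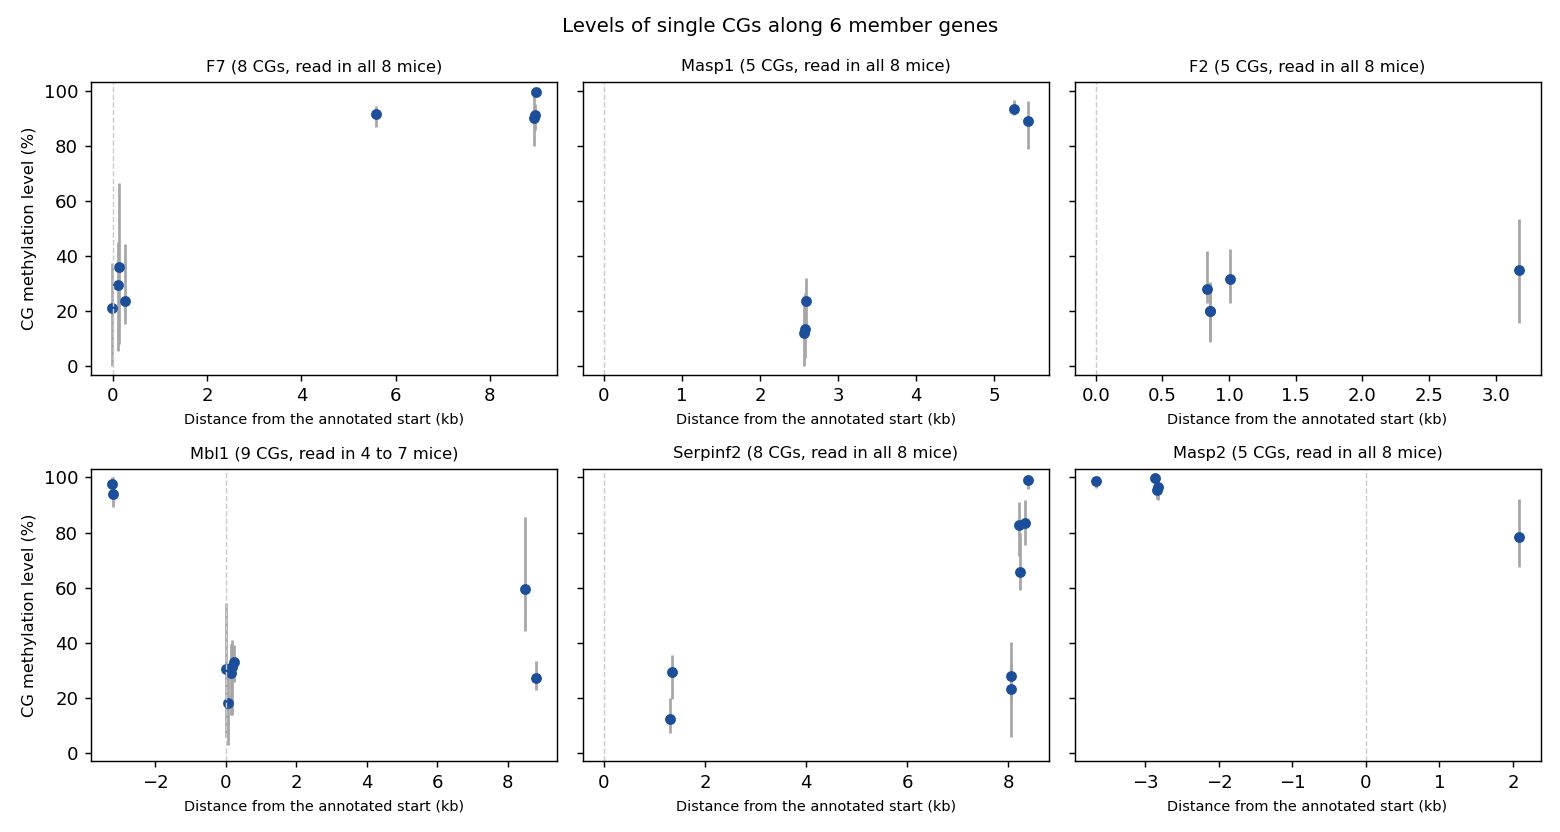
Level of single CGs (percent, vertical axis) against distance from the annotated start (kb, horizontal axis) in 6 members. Points are means over mice, grey lines run from the lowest to the highest mouse, and CGs inside other genes are left out. CGs were read in all 8 mice, except those of Mbl1, read in 4 to 7. Among the plotted CGs, those of F7 and Masp1 fall into a low and a high group, those of F2 lie at 19.96% to 34.8%, and those of Masp2 at 78.4% to 99.9%.

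Fibrinogen was intermediate in all 3 of its genes, which lie next to each other on chromosome 3. Means were 27.5 ± 3.91% for Fga, 27.5 ± 9.91% for Fgb and 25.7 ± 6.70% for Fgg. Over their 28 CGs, mean levels ran from 13.2% to 57.6%, both in Fga. Fgb was read around its start only, and mice differed there. At the CG 114 bases after the start, in the coding exon, levels were 8.42% and 9.28% in the B6 female and male, 8.89% and 27.3% in DBA. The F1 mice had 40.0% and 32.9% in BXD and 37.5% and 26.0% in DXB. The B6 mice and the DBA female lay low, the F1 mice lay higher, and the DBA male lay among the F1 mice. That CG had 11 reads in the DBA male and 45 to 161 in the other mice. Over the 3 CGs at 102 to 122 bases, means were 10.5%, 12.7%, 10.4% and 30.3% in the B6 female, B6 male, DBA female and DBA male. They were 41.1% and 32.4% in the BXD female and male and 38.7% and 28.8% in the DXB female and male. At the 2 CGs 24 and 52 bases before the start, means ran from 20.9% in the B6 male to 41.0% in the DXB female, and parents and F1 overlapped. Both stretches are shown on the strand of Fgb, with measured CGs in capitals.
Fgb, before the start (chr3:82853726-82853795, minus strand): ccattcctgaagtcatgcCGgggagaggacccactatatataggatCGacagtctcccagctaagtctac
Fgb, coding exon and edge of the intron (chr3:82853593-82853683, minus strand): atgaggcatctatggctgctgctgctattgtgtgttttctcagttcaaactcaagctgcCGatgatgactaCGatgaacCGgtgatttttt

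**Figure D3:**
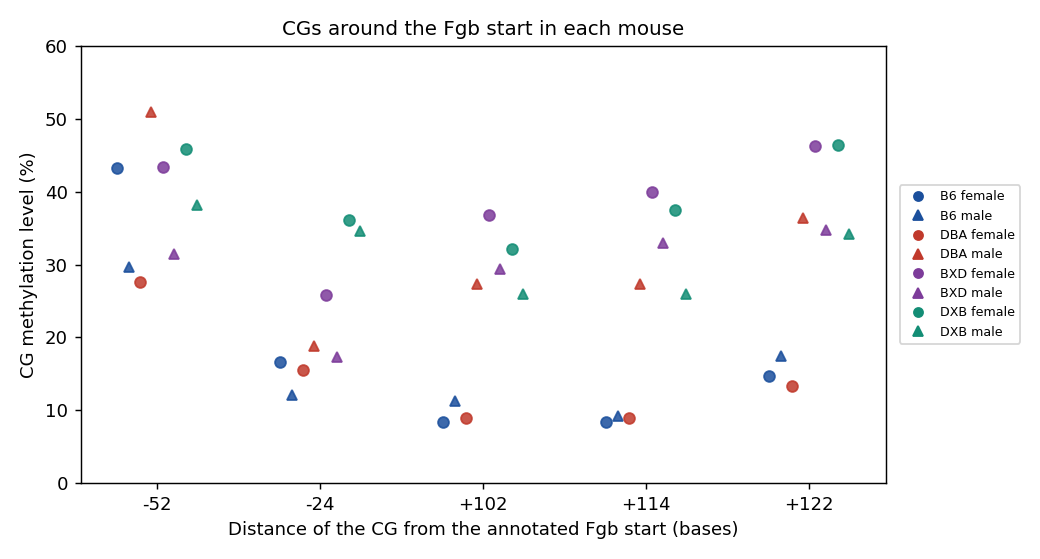
Methylation level (percent, vertical axis) of the 5 CGs around the Fgb start, named by their distance from it in bases, with 1 point for each mouse (circles females, triangles males). At 102, 114 and 122 bases after the start, both B6 mice and the DBA female lie at 8.42% to 17.5%, and the DBA male and the F1 mice lie at 26.0% to 46.4%.

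Of the inhibitors and the fibrinolytic genes, plasminogen (Plg), the precursor of plasmin, had 91.9 ± 1.84% over 8 CGs and protein S (Pros1) 91.2 ± 4.64% at 1 CG. Alpha-2-antiplasmin (Serpinf2), the plasmin inhibitor, had 43.6 ± 4.13% over 12 CGs, from 12.6% in an intron near its start to 98.9% beyond its end. The 8 of these CGs outside other genes averaged 53.0 ± 3.12%. Antithrombin (Serpinc1) had 6 CGs in at least 3 mice at 19.8% to 41.9%, all inside the gene. Protein C (Proc) had 5 such CGs at 60.6% to 87.6%. Heparin cofactor II (Serpind1) had no read in any mouse, and 4 CCGG sites in its region. In all, 11 of the 13 members without a CG in all 8 mice had CGs read in at least 3 mice.

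To compare liver-made members with the others, the median of the gene means was taken in each mouse. It was 44.5% over 23 liver-made members and 28.8% over C1qa, C1qc and Cfd, a difference of 15.7 ± 5.48 points (SD, n = 8 mice), from 6.99 to 24.6 points. Since C1qa and C1qc share the same 5 CGs, the median of these 3 members was the C1qa level in every mouse, so the comparison sets 23 genes against 1. Cfd, at 50.6%, lay above the liver-made median. The difference was 8.16 points (from -3.80 to 13.2) at 5 reads and 8.77 points (from -0.157 to 18.7) at 20 reads, so its direction turned in some mice. Without the B6 male it was 16.9 points. It was 3.33 points, from -4.87 to 8.66, when C1ra, Serping1 and Pros1, which other cells also make, were counted with the others, of which Pros1 alone had a CG in all mice. No other member had a CG within 1 kb of its start in all mice, so starts could not be compared.

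Strain differences at single CGs were asked first within each sex, by the rule of the study. It requires 10 reads in both mice, each level outside the exact 95% binomial interval of the other, and a difference above 50 points. In females, 3 of 652 CGs of the members (0.46%) were called, beside 0.549% of all 887174 CGs tested. In males 1 of 236 (0.424%) was called, beside 0.423% of 323010. Without C8a, C8b and F12, where the B6 male library carried DBA tags, 1 of 219 was called in males. The members' shares were near those of all CGs. The rule compares 1 mouse with 1 mouse, and its intervals hold counting error alone. The 3 called CGs are shown in capitals, each in a window of 61 bases.
Masp2, upstream flank (chr4:147973010-147973070, plus strand): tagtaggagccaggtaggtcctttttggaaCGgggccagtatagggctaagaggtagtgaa
Plg, intron (chr17:12601066-12601126, plus strand): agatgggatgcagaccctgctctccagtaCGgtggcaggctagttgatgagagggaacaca
C8g, downstream flank (chr2:25349183-25349243, minus strand): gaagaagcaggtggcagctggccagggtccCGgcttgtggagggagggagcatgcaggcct

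These CGs are named after their values were seen. The CG of Masp2 lay at -3623 bases from the start and was the sole CG called in both sexes. Its level was 96.0% of 126 reads in the B6 female and 97.5% of 199 in the B6 male, and 0% of 111 reads in the DBA female and of 45 in the DBA male. The BXD male had 52.3% of 199 reads, and the other F1 mice had none. In the BXD male, reads tagged B6 had 94.4% (108 reads) and reads tagged DBA had 1.11% (90 reads). The strains stood apart in both sexes of the parents, and the chromosomes stood apart in the hybrid. At the neighbouring CG, at -3676 bases, the 8 mice had 96.3% to 100.0%. The opposite strand of the called CG had no reads, and an unmethylated C and a T in the DBA sequence cannot be told apart in these counts.

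The CG of Plg lay in an intron, 29621 bases after the start. It had 94.8% of 58 reads in the B6 female, 0% of 24 in the DBA female, and 43.1% of 137 in the BXD male, with 3 reads in the B6 male and none in the DBA male. The opposite strand again had no reads, so an unmethylated C and a T in DBA cannot be told apart here either. The 8 CGs of Plg read in all mice were at 70.4% or more in each mouse. The CG of C8g lay 8026 bases from the start, inside Lcn12. It had 14.3% of 35 reads and 18.3% of 153 in the B6 female and male, 70% of 10 and 44.9% of 69 in DBA, 61.4% and 40.0% in BXD, and 45.2% and 50% in DXB. Both B6 mice lay below all the others, and the DBA female rests on the minimum of 10 reads.

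**Figure D4:**
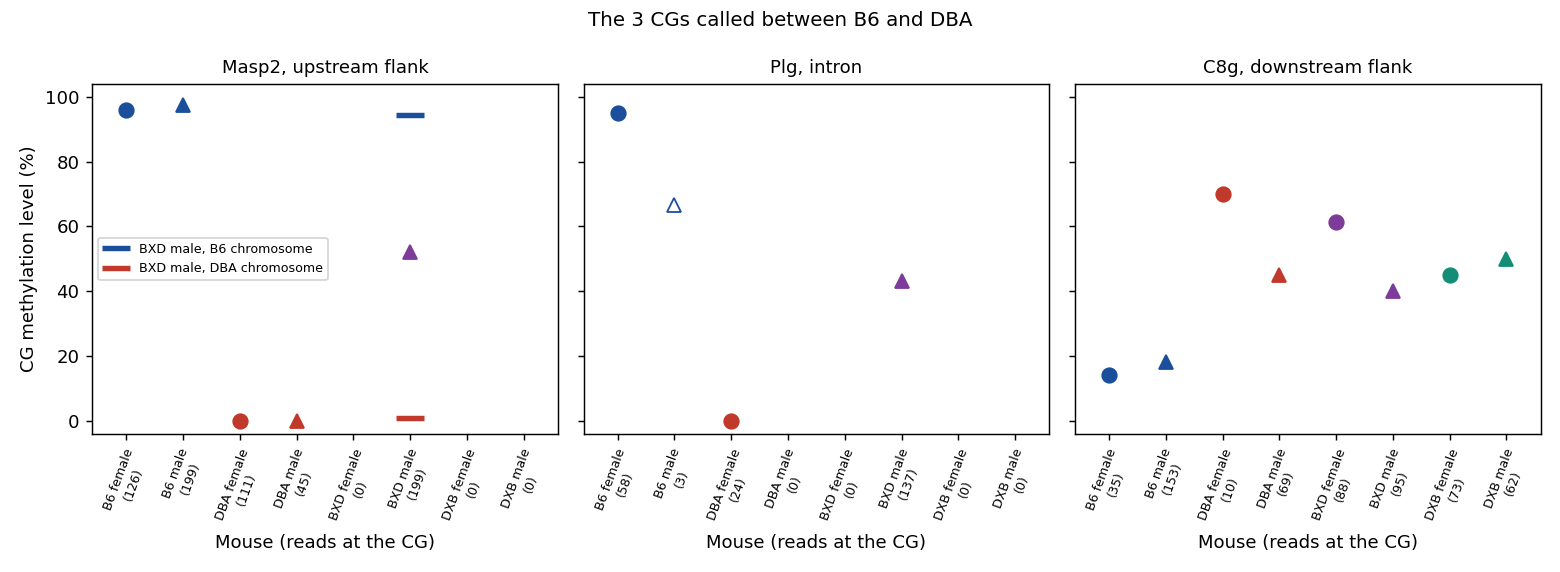
Methylation level (percent, vertical axis) of the 3 CGs called between B6 and DBA in each mouse, with reads in parentheses, circles for females and triangles for males. The open triangle has 3 reads, mice without a point have 0 reads, and bars give the tagged chromosomes of the BXD male at Masp2, 94.4% for B6 and 1.11% for DBA.

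With the difference lowered to 30 points, 16 CGs were called in females and 4 in males (2.45% and 1.69%), beside 1.62% and 1.55% of all CGs. Differences above 30 points, whatever the interval, were found at 16 CGs in females and 5 in males. In females they lay in the regions of C1qa and C1qc (shared CGs), C1ra, C2, Cfb (a CG shared with C2), C3, C8g, Masp2, Mbl1, F10, Fga, Plg and Cpb2, lower in B6 for C8g, Mbl1 and Cpb2 and higher in B6 for the others. In males they lay in those of Masp2, higher in B6, and of F2, Fgg and Vtn, lower in B6. The F1 mice took no part in these calls. For the called CGs, 3 F1 readings could be set between parents of the same sex, both F1 females at C8g and the BXD male at Masp2, and all 3 lay between them. At the differences above 30 points it was 16 of 21 readings, and 78.4% of 24330 such readings over all CGs. Reads tagged to both chromosomes were few. In the BXD male, 28 CGs of 6 members had 10 reads on each, and the 2 chromosomes differed by more than 50 points at 2 of them, in Masp2 and C1qa, beside 4.63% of all 49603 such CGs. The CG of C1qa rests on 18 reads of B6 (94.4%) and 10 of DBA (40%), and the DBA male had 75% of 24 reads there. In each other F1 mouse 9 CGs of Masp2, F5, Plg and Serpinc1 had such reads. None differed by more than 50 points, beside 5.72% to 6.08% of all such CGs, and the largest difference was 22 points.

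Over all 8 mice, with F1 mice lending to the spread and sex in the model, no CG of the members passed an adjusted p of 0.05. By edgeR's quasi-likelihood test on the counts, 0 of 149 CGs were called between B6 and DBA, beside 0.424% of all CGs, and 2 had an unadjusted p below 0.05 (1.34%, beside 3.69%). For F1 against the mean of the parents the calls were 0, beside 0.585%, with 15 at the unadjusted level (10.1%, beside 9.14%). For females against males they were 0, beside 0.673%, with 5 at the unadjusted level (3.36%, beside 5.9%). All members lie on autosomes, while the shares of all CGs also take in the X chromosome. The paper places most of its sex-specific sites there, so the shares for sex do not compare like with like. limma on the levels called 0 as well in each comparison. It gave 15, 16 and 18 CGs at the unadjusted level (10.1%, 10.7% and 12.1%), beside 6.89%, 8.1% and 6.27% of all CGs. The smallest adjusted p by edgeR between the strains was 0.465, at the C8g CG above, where limma gave B6 a level 41.2 ± 9.18 points below DBA (SE). The next was a CG in a coding exon of Fga, 6870 bases after the start, with 36.0% and 25.6% in B6, 5.26% and 10.7% in DBA, and 12.2% to 28.6% in the F1 mice (edgeR adjusted p = 0.801).

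For F1 mice the smallest adjusted p was that of the Fgb CG at 114 bases (0.0715 by edgeR), where limma gave F1 20.6 ± 5.49 points above the mid-parent value (SE). Of the 5 Fgb CGs, 4 had an unadjusted p below 0.05 by edgeR, all higher in F1. Without the DBA male, which had 11 reads there, the Fgb CG had an edgeR adjusted p of 0.0361. A CG of F7 at 118 bases was lower in F1 by 26.4 points (limma, edgeR adjusted p = 0.141), and without the BXD female its adjusted p was 0.0344. It had 50% and 66.7% in B6, 32.1% and 48.0% in DBA, 36.8% and 26.4% in BXD, and 20% and 8% in DXB, and parents and F1 overlapped. The opposite strand of the same CG, at 117 bases, showed no such drop (limma estimate -3.283 points, edgeR unadjusted p = 0.608). Levels there were 31.25% and 27.8% in B6, 20% and 45.1% in DBA, 5.56% and 33.3% in BXD, and 35.7% and 36.4% in DXB. The calls at Fgb and F7 both rest on leaving out 1 library.

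At the level of genes, 21 members with at least 3 CGs were tested by limma on their mean levels, and none passed an adjusted p of 0.05. Between B6 and DBA 0 were called, beside 0.559% of 12347 genes, with 1 at an unadjusted p below 0.05 (4.76%, beside 7.02%). For F1 against the mid-parent 0 were called, beside 0.0081%, with 2 at the unadjusted level (9.52%, beside 9.89%). For sex 0 were called, beside 0.972%, with 2 at the unadjusted level (9.52%, beside 8.4%). The shares of all genes again include the X chromosome, and the members are all autosomal. edgeR on summed counts called 0 in each, with 1, 2 and 1 at the unadjusted level (4.76%, 9.52% and 4.76%), beside 6.02%, 8.01% and 6.79% of all genes. For F1 mice the members with an unadjusted p below 0.05 were Masp1 and Fgb. Masp1 had 48.7% in F1 mice, 45.03% in B6 and 43.5% in DBA, 4.43 ± 1.06 points above the mid-parent value (SE, limma adjusted p = 0.331). Fgb had 34.8% in F1 mice, 17.2% in B6 and 23.5% in DBA, 14.4 ± 4.15 points above the mid-parent value (SE, limma adjusted p = 0.41). Masp1 was 4.83 ± 1.06 points higher in females (48.9% and 44.0%, limma adjusted p = 0.142), and Serpinf2 5.10 ± 1.93 points (adjusted p = 0.53). Female means exceeded male means in 16 of the 21 members and in 41.3% of all genes. The median difference was 0.985 points for the members and -0.344 points for all genes. In each strain and hybrid the female library also had the higher mean level over all its CGs with 10 reads. Library means were 46.6% to 53.6% in females and 35.8% to 51.2% in males, lowest in the DBA male. These sets of CGs differ between libraries, while the members' values use the same CGs in all mice. The part of the library means in the members' values was not tested. C1qa and C1qc count as 2 of these members with the same CGs, and F7 and F10 share 3. Without the B6 male, as without each other mouse in turn, no member was called between the strains or between the sexes, by edgeR at single CGs or by limma at genes.

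**Figure D5:**
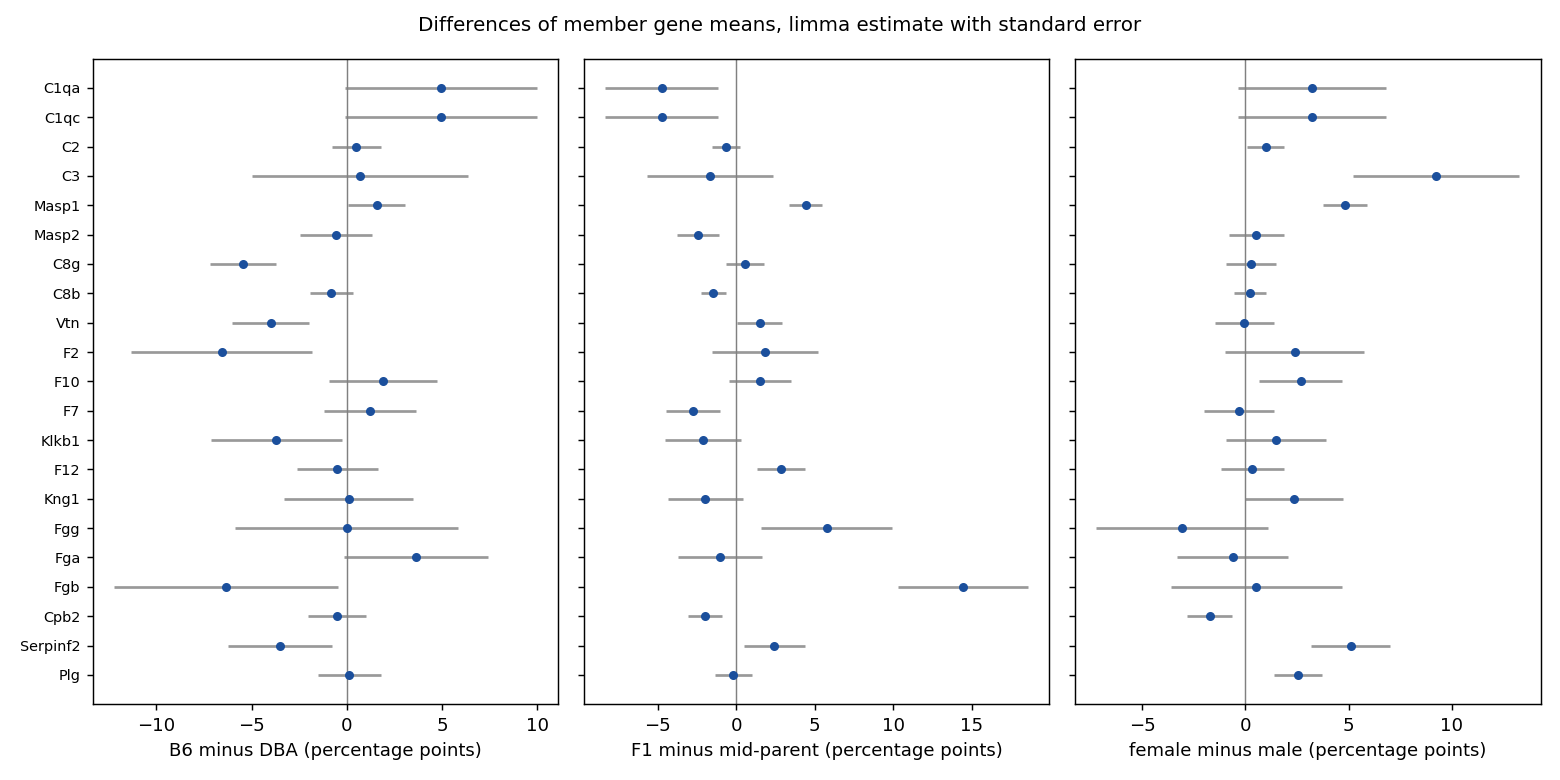
Differences of mean level (percentage points, horizontal axes) for the 21 members with at least 3 CGs, as limma estimates with standard errors, for B6 minus DBA, F1 minus the mid-parent value and female minus male. Fgb stands highest in the F1 panel at 14.4 points, and C3 in the panel of the sexes at 9.24 points.

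Other genes of the 2 cascades, 40 in a list that excludes the members, included 15 with at least 3 CGs. The complement gene C4a was not among the genes tested. The paper reports that C4a differs between the sexes in methylation and in expression. None of the 15 was called by limma between the strains or in F1 mice, beside 0.559% and 0.0081% of all genes. Between the sexes 1 was called, beside 0.972% of all genes, those on the X chromosome included. It was Hc, which encodes complement C5, with 81.6% in females and 71.6% in males over 12 CGs, a difference of 9.99 ± 1.18 points (SE, limma adjusted p = 0.0136). The females had 80.3% in B6, 80.7% in DBA, 84.6% in BXD and 80.5% in DXB. The males had 71.1%, 68.7%, 73.1% and 73.4% in the same order, so the sexes did not overlap. The call was lost when either B6 mouse (limma adjusted p = 0.0612), the BXD female (0.0508), the BXD male (0.0554) or the DXB male (0.0603) was left out, while the difference stayed between 9.31 and 10.9 points without any 1 mouse, and edgeR on summed counts gave an adjusted p of 0.587.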

How the data were processed

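Liver DNA of 8 mice was read by RRBS. The authors aligned reads to mm9 with BS Seeker (version not given in the sources used here) and deposited counts of methylated and unmethylated reads for each cytosine, strand and strain tag, with the methylated fraction beside them. The fraction was recomputed from the counts summed over tags. The deposited tables of the authors' own tests (strain, sex and allele differences) were not used, nor were 12 columns of single mice in them. Groups followed strain and sex in the labels.

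Intervals hold counting error only. Models used edgeR 4.0.16 on methylated and unmethylated counts and limma 3.58.1 on gene means in percent (R 4.3.3), with sex as a covariate and Benjamini-Hochberg adjustment over all CGs or genes. Tested on simulated data, limma missed more of the changed CGs than edgeR did and made more false calls than its threshold allows. Other steps used Python 3.11.15 with scipy 1.17.1.

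Members and lists (liver-made and other members, markers, the 40 further cascade genes) were chosen with earlier results of these data known. Values in each mouse were due for members with at least 2 called CGs or a gene-level call, of which there were 0. Levels were due for the 3 highest and 3 lowest members, the same at the starts, and the 4 members not made by liver. Other genes described in each mouse, and the sequences of Fgb, F7 and Masp1, were chosen after their values were seen. Alternatives covered read minimums, regions, strands, other tests and leaving out each mouse.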

Additional observations from a re-analysis of the deposited data

Results flagged for a closer look

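Of 63 groups of 4 mice of a sex, 3 held a mouse far from the others by Dixon's criterion, which chance alone gives in about 1 of 20 groups. F2 averaged 35.0% in the DBA male, and 21.5% to 23.4% in the other males, and 4 of its 5 CGs had 10 or 12 reads in the DBA male. Klkb1 averaged 35.6% in the same mouse, and 24.3% to 25.1% in the other males. F12 averaged 81.9% in the BXD female, and 75.1% to 76.0% in the other females.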

How the results depend on the processing

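Calls between B6 and DBA in females numbered 5 of 800 at 5 reads (beside 0.681% of all CGs), 16 of 652 at 30 points (1.62%), 1 of 449 within gene records (0.549%) and 1 of 149 at CGs read in all 8 mice (0.356%). In males they numbered 3 of 349 (0.682%), 4 of 236 (1.55%), 0 of 150 (0.423%) and 0 of 149 (0.325%). Over all mice, leaving out each mouse in turn gave 0 to 1 CG called by edgeR for F1 against the mid-parent value, namely an Fgb CG without the DBA male and an F7 CG without the BXD female. The difference of liver-made and other members was 3.33 points with C1ra, Serping1 and Pros1 moved, 8.16 at 5 reads, 8.77 at 20 reads and 21.98 at CGs outside other genes, where C1qa alone stands for the other members. The median member level, 44.2%, was 50.6% at 5 reads and 48.5% outside other genes. F1 readings between the parents were 16 of 21 at differences above 30 points. The alternatives for member levels and F1 readings, CGs outside other genes, male calls without members in DBA-tagged stretches, and leaving out mice for the liver-made comparison were chosen after seeing the data. The other 101 values kept their side of the threshold, stayed within 1.5 times a count, or moved by less than 1 SD across mice. The labels give no pairing of mice beyond sex, and sex, which matches mice across strains, was in every model. Depth limits single CGs, which may rest on 10 reads.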
